A study of Caenorhabditis elegans with 2 samples.

Results

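In the authors' conservative list for the *Caenorhabditis elegans* zinc-finger protein HINF-1, 205 peaks (36.2% of the list, 95% Wilson interval 32.3 to 40.2) had their summit within 500 bp of the annotated 5' end of a protein-coding gene that does not encode a histone. The list held 362 other peaks. The 205 are called promoter peaks here. A further 21 peaks met the distance rule and were left out because a gene named his, hil or htz-1 had its 5' end within 500 bp of the same summit. Within the list, position and gene names chose the members, and the signal value did not. All peaks of the list had already passed the authors' reproducibility threshold.

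The data were chromatin immunoprecipitation followed by sequencing (ChIP-seq) of whole worms of strain RW12232, genotype st12232[F39B2.1::TY1::EGFP::3xFLAG] I, in which hinf-1 (F39B2.1) carries a CRISPR insertion coding for a TY1, an EGFP and a 3xFLAG tag. Worms were young adults aged 65 hours, synchronised by L1 starvation after bleaching, and the immunoprecipitation used an anti-GFP antibody. There were 2 biological replicates of 1 group, with no second genotype, stage or treatment, and the control experiment named in the labels was not used here. Whole animals were assayed, so the tissues in which a site was occupied cannot be told apart.

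HINF-1 resembles human HINFP, which is known for activating histone H4 genes at the onset of DNA replication. In worms many genes are transcribed from operons, in which a promoter ahead of the first gene serves several genes on the same strand and the downstream messages are separated by trans-splicing. Other genes sit head to head on opposite strands, so that the DNA between them can serve as a divergent promoter for both. The 5' end annotated for a trans-spliced gene need not be the position where transcription starts.

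The sequences below carry some of the patterns described in the rest of the text, and most promoter peaks lacked the words marked here. Each is the 101 bases centred on a promoter peak's summit, written 5' to 3' on the coding strand of the nearest gene and taken from the RefSeq assembly WBcel235, which the files call ce11. The window at K07C5.13 (chrV:10341959-10342059, plus strand) is shown because this peak had the highest signal value in the whole list. Capitals mark 2 copies of GGGACACA, the first of which reads on the opposite strand.
K07C5.13: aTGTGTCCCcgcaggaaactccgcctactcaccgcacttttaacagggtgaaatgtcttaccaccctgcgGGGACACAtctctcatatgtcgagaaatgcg
The next windows hold TTTCGCGC or TTTGGCGC, an E2F-like word named for the E2F family of cell-cycle regulators, in capitals on either strand. The window of Y22D7AL.10 lies at chrIII:1619045-1619145, minus strand, that of lin-9 at chrIII:8904173-8904273, minus strand. The windows of F54E12.2, set-2 and sgo-1 lie at chrIV:11337199-11337299, minus strand, chrIII:4930388-4930488, minus strand, and chrIV:7796844-7796944, minus strand. The windows of npp-3, T19H12.2 and T21B10.3 lie at chrII:11874810-11874910, minus strand, chrV:4890113-4890213, plus strand, and chrII:8933837-8933937, plus strand.
Y22D7AL.10: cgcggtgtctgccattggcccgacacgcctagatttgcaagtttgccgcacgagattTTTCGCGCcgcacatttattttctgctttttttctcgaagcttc
lin-9: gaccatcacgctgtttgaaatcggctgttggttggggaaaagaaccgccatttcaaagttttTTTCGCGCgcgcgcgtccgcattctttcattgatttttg
F54E12.2: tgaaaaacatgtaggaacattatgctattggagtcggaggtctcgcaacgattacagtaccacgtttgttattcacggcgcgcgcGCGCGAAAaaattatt
set-2: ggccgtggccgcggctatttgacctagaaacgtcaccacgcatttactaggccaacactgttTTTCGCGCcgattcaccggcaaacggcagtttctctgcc
sgo-1: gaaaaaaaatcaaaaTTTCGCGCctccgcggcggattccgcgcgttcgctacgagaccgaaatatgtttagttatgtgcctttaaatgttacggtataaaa
npp-3: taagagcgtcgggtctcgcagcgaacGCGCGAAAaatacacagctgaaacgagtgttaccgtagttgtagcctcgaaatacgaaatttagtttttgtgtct
T19H12.2: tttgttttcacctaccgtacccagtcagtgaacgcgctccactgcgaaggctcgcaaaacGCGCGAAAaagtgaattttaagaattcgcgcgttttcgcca
T21B10.3: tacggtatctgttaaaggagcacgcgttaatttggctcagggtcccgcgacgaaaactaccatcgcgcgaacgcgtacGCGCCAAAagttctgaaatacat

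The nearest genes behind these windows have varied functions, several of them nuclear. LIN-9 is a subunit of the DREAM complex, which represses cell-cycle genes, SET-2 methylates histone H3, SGO-1 is a shugoshin, and NPP-3 is a nuclear pore protein. RefSeq names Y22D7AL.10 as the mitochondrial 10 kDa heat shock protein, F54E12.2 as transcription termination factor 2 and T19H12.2 as a relative of the acidic leucine-rich nuclear phosphoproteins. In the windows of lin-9 and F54E12.2 the E2F-like word overlaps a run of alternating C and G that also contains CGCGCGC.

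The E2F-like word, searched as TTTCGCGC or TTTGGCGC on both strands within 50 bp of the summit, was present in 10 of 205 promoter peaks (4.88%, 2.67 to 8.75). It was present in 6 of the 362 other conservative peaks (1.66%, 0.762 to 3.57). It was in 13 of 472 windows of the strongest unselected peaks (2.75%, 1.62 to 4.65) and in 0.858% of all 17474 unselected peaks that met the same distance rule. Unselected peaks are those of the authors' long ranked list that overlap neither the conservative nor the optimal list, and the strongest are those among the 2000 of highest signal value, some of which also pass the reproducibility threshold. Of the 17740 ranked peaks at non-histone promoters, 1.16% were in the conservative list. The interval of the promoter peaks overlapped those of the other conservative peaks and of the strongest unselected peaks. Of the 10 peaks with the word, 5 fell among the 52 promoter peaks of highest signal value, and the remaining members with it, tba-2 and eef-2, are not shown.

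CGCGCGC was found in 12 promoter peaks (5.85%, 3.38 to 9.95), against 4.7% of the other conservative peaks, 2.75% of the strongest unselected peaks and 0.761% of all unselected peaks at promoters. In 2 windows it overlapped the E2F-like word. CGTCCG, taken as the core of the human HINFP site, was in 3 promoter peaks (1.46%), against 2.76% of the other conservative peaks, 2.97% of the strongest unselected peaks and 1.5% of all unselected ones. CACGTG was in 2.44% of promoter peaks, against 3.31% of the other conservative peaks, 3.81% of the strongest unselected peaks and 2.24% of all unselected ones. GGGACACA was in 1 promoter peak, that of K07C5.13, against 16 of the other conservative peaks (4.42%), 0.212% of the strongest unselected peaks and 0.0858% of all unselected ones. GAGAGA was in 11.2% of promoter peaks (7.59 to 16.3), against 9.39% of the other conservative peaks, 11.4% of the strongest unselected peaks and 7.29% of all unselected ones. TTTCAG was in 17.6% of promoter peaks (13 to 23.4), against 7.73% (5.41 to 11) of the other conservative peaks, 12.1% (9.44 to 15.3) of the strongest unselected peaks and 19.1% of all unselected ones. The windows of the promoter peaks had a median GC content of 45.5%, that of all unselected promoter peaks was 39.6% and that of the strongest was 45.5%, and the part of base composition in these counts was not tested.

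Signal values, which the authors' peak caller assigned with no stated scaling and which are used only within their own list, were spread narrowly apart from a single peak. K07C5.13, which encodes an uncharacterised protein, had 3826 in the conservative list, with 1594 in the ranked list of replicate 1 and 2222 in that of replicate 2, and stood first in all 3. Its peak (V:10341828-10342284) lay upstream of the gene, which is the first of a run with K07C5.3, and only a share of 0.525 of its 31-base words was unique in the genome. The next was rpl-3, which encodes a protein of the large ribosomal subunit, with 263 in the conservative list, 129 in replicate 1 and 131 in replicate 2. Below these, 26 promoter peaks had values from 100 to 200, 153 from 50 to 100 and 24 under 50. The median was 67 (quartiles 57.2 to 83.5), against 202 (67.4 to 901) for the 21 peaks at histone genes and 63.2 (55.2 to 79.5) for the 341 peaks with no protein-coding 5' end within 500 bp.

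**Figure D1:**
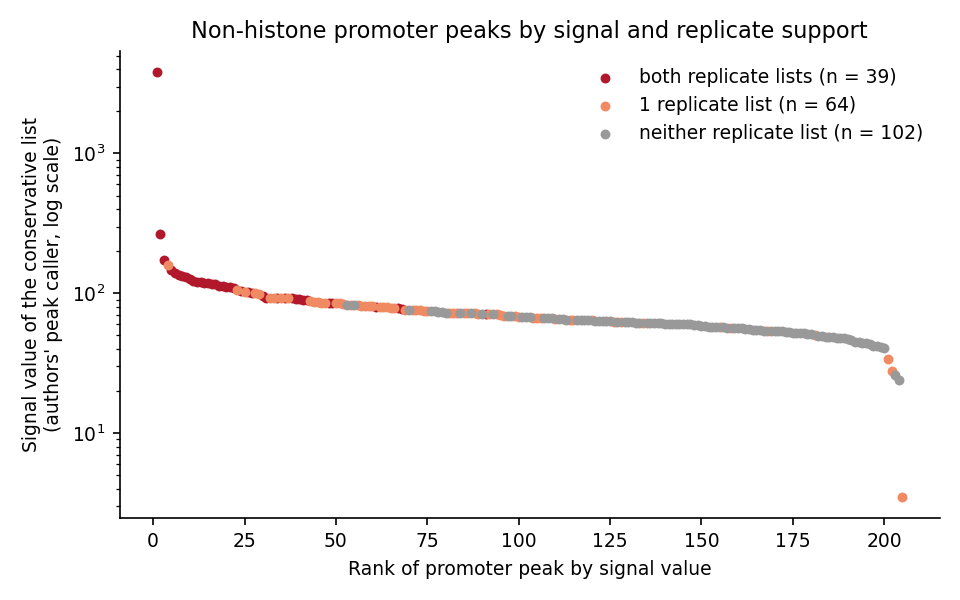
Signal value of the 205 promoter peaks (vertical axis, authors' unit, log scale) by rank (horizontal axis), with colours for support in the separately thresholded lists of the replicates. K07C5.13 stands alone at 3826, and the peaks found in both replicate lists are mostly the strongest ones.

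The 30 strongest promoter peaks included 4 near genes of protein folding, a grouping made after their values were seen. The divergent Hsp70 genes F44E5.4 and F44E5.5 shared a peak (II:11759350-11759579) of 172, which had 74.1 in replicate 1 and 100.2 in replicate 2. The peak between Y55F3AR.2, a thioredoxin-domain gene, and the chaperonin subunit gene cct-8 had 133, with 47.7 in replicate 1 and 82.8 in replicate 2. dnj-13, a DnaJ co-chaperone gene, had 119, with 60.2 and 58 in the replicates, although an ncRNA gene had its 5' end closer to that summit. Y22D7AL.10 had 112, with 51.5 in replicate 1 and 57.1 in replicate 2. It is divergent to hsp-60, which encodes the mitochondrial chaperonin that the 10 kDa protein works with. In replicate 1 these 4 peaks ranked between 73 and 146, and in replicate 2 between 67 and 157.

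Of the other peaks among the 30 strongest, 7 had a nearest gene of RNA synthesis, processing or translation initiation, also grouped after the values were seen. eif-3.C, a subunit of translation initiation factor 3, had 158 but differed between the replicates, at 43.6 in replicate 1 and 118 in replicate 2, and it was absent from the thresholded list of replicate 1. The splicing helicase gene mog-4 had 134, with 67.7 and 71.1 in the replicates, and a unique share of 0.595. xrn-2, a nuclear exoribonuclease gene, had 116 with its summit exactly at the 5' end, and rpl-43 lay within 500 bp of the same summit. thoc-7 of the THO mRNA export complex had 109, hrpk-1, an hnRNP K homologue, 100.1, cmtr-1, a cap methyltransferase gene, 100.05 and F54E12.2 99. Outside these groups, cdc-48.1, a segregase of the AAA ATPase family, had 130, and sec-61.G of the protein translocon 126.

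The others of the 30 strongest covered varied functions. K11H12.1, a BolA-like gene, had 145, Y75B12B.11 118, the shared peak of Y17G9B.5 and rpl-20 118, and rpi-2 116. C56C10.7, named as a trafficking complex subunit, had 112, lin-9 111, the potassium channel gene kvs-3 105, the ubiquitin ligase gene wwp-1 104 and the alpha-tubulin gene tba-2 103. wip-1 had 120, the pair scpr-1 and gpap-1 101, and ddp-1, a mitochondrial import gene, 95.4. The remaining peaks among the 30, at rpl-35, rpl-15 and rpl-7A, are given with the ribosomal protein genes. At Y75B12B.11, kvs-3, wwp-1 and cmtr-1, as at dnj-13, the nearest 5' end of any gene was that of a noncoding RNA.

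Support in the replicates followed the signal value. Of the 205 promoter peaks, 39 (19%, 14.2 to 24.9) overlapped a peak in both separately thresholded replicate lists and 102 (49.8%, 43 to 56.5) a peak in neither. Among all conservative peaks the corresponding shares were 20.8% and 51%, so promoter peaks did not stand apart. Of the 52 strongest promoter peaks 35 were in both lists, of the next 51 there were 4, and of the 2 lower groups of 51 there were 0 (upper limit of the interval 7% in each). The thresholded list of replicate 1 held 65 of the promoter peaks and that of replicate 2 held 77. In the long ranked lists, by contrast, 204 were present in replicate 1 and 202 in replicate 2, with median ranks of 458 among 53566 and 460 among 51539.

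**Figure D2:**
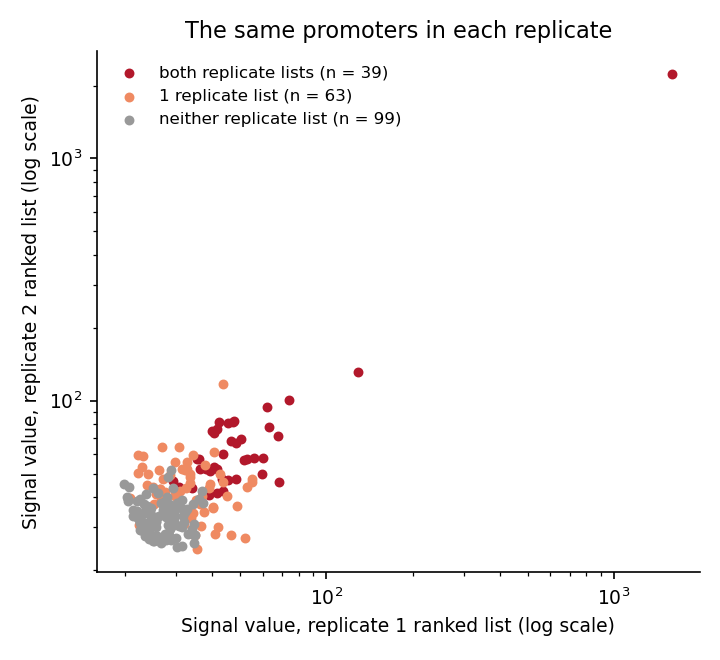
Signal value of each promoter peak in the ranked list of replicate 1 (horizontal axis) and replicate 2 (vertical axis), both on log scales, for the 201 peaks present in both. K07C5.13 and rpl-3 lie at the upper right, and most others lie in a cloud whose medians were 30 in replicate 1 and 38 in replicate 2.

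Across the 201 promoter peaks with a value in both ranked lists, the log2 signal values had a Pearson correlation of 0.7505 and a Spearman correlation of 0.4226. Without K07C5.13 these were 0.5448 and 0.4139. The points share 2 libraries and are genomic regions, not replicates, so the correlations only describe these lists. The lowest value, 3.51, belonged to 1 of 2 overlapping peaks at Y49A3A.3. Both of these overlap the same peak in each replicate list, so their replicate values are shared.

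Summits lay mostly upstream of the 5' ends. In 138 of 205 promoter peaks (67.3%, 60.6 to 73.4) the summit was upstream of, or at, the nearest protein-coding 5' end, against 43.4% (42.7 to 44.1) of unselected peaks in the same window and 45.8% (41.3 to 50.3) of the strongest unselected ones. The unselected peaks were not matched to the promoter peaks on signal value. In their own ranked list their median signal value was 18.7, and that of the strongest was 43.1. The median position of promoter peaks was 95 bp upstream (quartiles 267 upstream to 45 downstream). It was 57 bp downstream for the unselected peaks and 26 bp downstream for the strongest of them. Positions from 201 to 500 bp inside the gene held few promoter peaks: 6, 4 and 7 in the 3 bins of 100 bp, or 2.93%, 1.95% and 3.41%, against 10.9%, 10.2% and 10.7% of unselected peaks. The strongest unselected ones had 10.4%, 8.69% and 7.84%. In the last bin their interval (5.74 to 10.6) overlapped that of the promoter peaks (1.66 to 6.88). The absolute distance had a median of 171 bp, and 33.2% (27.1 to 39.9) of summits lay within 100 bp of a 5' end. The unselected peaks had 230 bp and 22.1%. The strongest unselected ones had 211 bp and 24.8% (21.1 to 28.9), an interval that overlaps that of the promoter peaks.

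**Figure D3:**
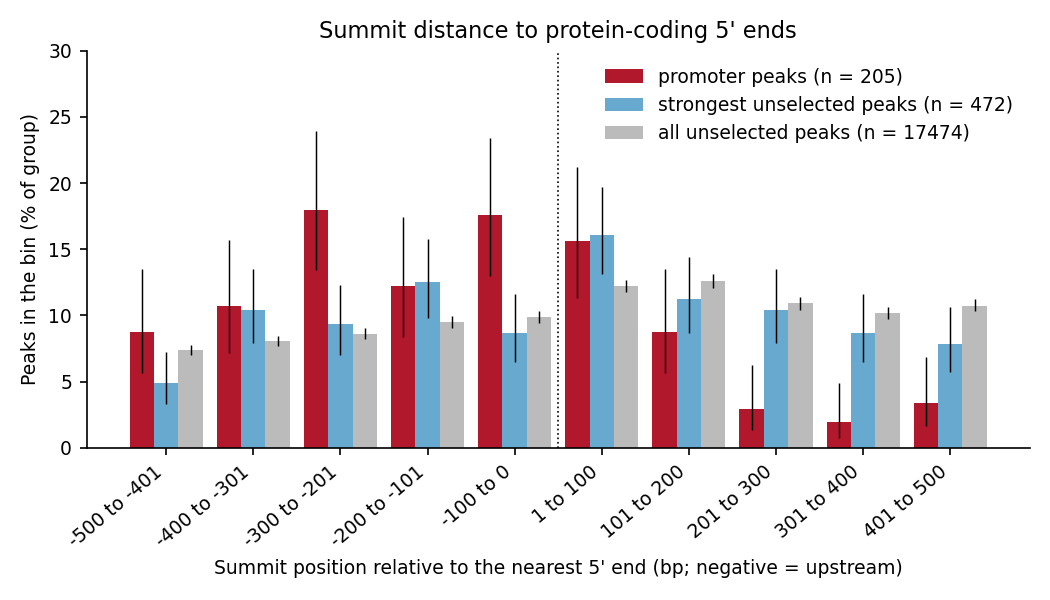
Share of each group of peaks (vertical axis, percent, with 95% Wilson intervals) by position of the summit relative to the nearest protein-coding 5' end in bins of 100 bp (horizontal axis, negative is upstream). Promoter peaks (left bar of each set) exceed both groups of unselected peaks at 201 to 300 bp and at 0 to 100 bp upstream, and are scarcer beyond 200 bp downstream.

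The upstream share was 86.5% (74.7 to 93.3) in the 52 strongest promoter peaks and 51% (37.7 to 64.1) in the 51 weakest. The interval of the 51 weakest overlapped that of the strongest unselected peaks, 41.3 to 50.3. Among the 100 strongest, the shortest distances were those of xrn-2 at 0 bp, F46F11.7 at 7 bp upstream, gpi-1, which encodes a glycolytic enzyme, at 7 bp downstream, K10D2.5 at 10 bp upstream and C23G10.2 at 10 bp downstream. At the edge of the window, the outermost members were pqn-71, 496 bp upstream with a signal value of 73.9, and T21B10.3, 495 bp upstream with 56.5. The nearest peaks outside it were T01C3.2, 504 bp downstream with 59.9, and twk-5, 506 bp downstream with 92.4. The summit near pqn-71 was 1 bp from the 5' end of an ncRNA gene, and that near twk-5 was 111 bp from a snoRNA gene.

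A protein-coding gene was not always the closest gene. For 173 of the 205 peaks (84.4%, 78.8 to 88.7) the nearest 5' end of any gene was protein-coding, against 94.6% of unselected promoter peaks and 90.5% of the strongest unselected ones. In the other cases it belonged to an ncRNA gene at 15 peaks, a snoRNA gene at 5, a tRNA gene at 4, an snRNA gene at 4, a piRNA gene at 2, a miRNA gene at 1 and a pseudogene at 1. Their median signal value of 66 was close to that of all promoter peaks, 67. Some noncoding 5' end lay within 500 bp of 47 of the 205 summits (22.9%). By annotation 108 summits were intergenic, 42 in coding exons, 18 in noncoding exons, 16 in 5' UTRs, 13 in introns and 8 in 3' UTRs.

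Divergent promoters, defined by protein-coding 5' ends at most 1000 bp apart on opposite strands, accounted for 44 of the promoter peaks (21.5%, 16.4 to 27.6). The share was 14.8% among unselected promoter peaks, 21.6% among the strongest of them and 17.5% among all non-histone protein-coding genes. The last share counts genes, whereas a peak counted when any gene within 500 bp of its summit was in a pair, so these units differ. In 35 of the 44 the summit lay between both 5' ends. In 32 at least 2 protein-coding 5' ends were within 500 bp of the summit, not always both of the pair. The median gap was 444 bp, against 489 bp over all divergent genes. The strongest were F44E5.4 with F44E5.5, Y55F3AR.2 with cct-8, rpl-15 with K11H12.8, wip-1 with larp-1, dnj-13 with F54D5.9, Y17G9B.5 with rpl-20, Y22D7AL.10 with hsp-60, and rpl-7A with set-21. The peak at xrn-2 and rpl-43 also counted as divergent, through rpl-43 and Y48B6A.1, but its summit was outside that pair. The peak of rpl-7A and set-21 (IV:4390563-4390792), between 5' ends 254 bp apart, lay 88 bp upstream of rpl-7A and 166 bp upstream of set-21.

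Divergent and single promoters had overlapping signal values. Divergent ones had a median of 71.5 (quartiles 61.5 to 87.4, n = 44), with values from 28 to 172, and single ones a median of 66.4 (56.5 to 82.2, n = 161), with values from 3.51 to 3826. The medians differed by 5.07, with an interval of -7.53 to 17.9 combined from the 95% intervals of both medians. With 5' ends at most 500 bp apart the difference was -3.83, the opposite sign. Summits were upstream in 81.8% (68 to 90.5) of divergent and in 63.4% (55.7 to 70.4) of single promoters. For a summit between both 5' ends this is fixed by the definition.

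Promoter peaks lay within runs of same-strand genes at a higher share than unselected peaks did. Without an operon annotation, a gene was called within a run when the end of a protein-coding gene on its strand lay at most 500 bp ahead of its 5' end, and first of a run when it only had such a gene behind it. By this proxy the nearest gene was within a run for 98 of the 205 promoter peaks (47.8%, 41.1 to 54.6), against 21.1% of unselected promoter peaks, 30.1% (26.1 to 34.4) of the strongest unselected ones and 18.2% of all non-histone protein-coding genes. It was the first of a run for 30 (14.6%, 10.4 to 20.1), against 13.3% of unselected peaks, 16.5% of the strongest unselected ones and 13.3% of genes. No run was present for 77 (37.6%, 31.2 to 44.4), against 65.5% of unselected peaks, 53.4% (48.9 to 57.8) of the strongest unselected ones and 68.5% of genes. On autosomes alone, 48.7% of promoter peaks were within a run, against 23% of unselected peaks and 19.5% of genes.

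**Figure D4:**
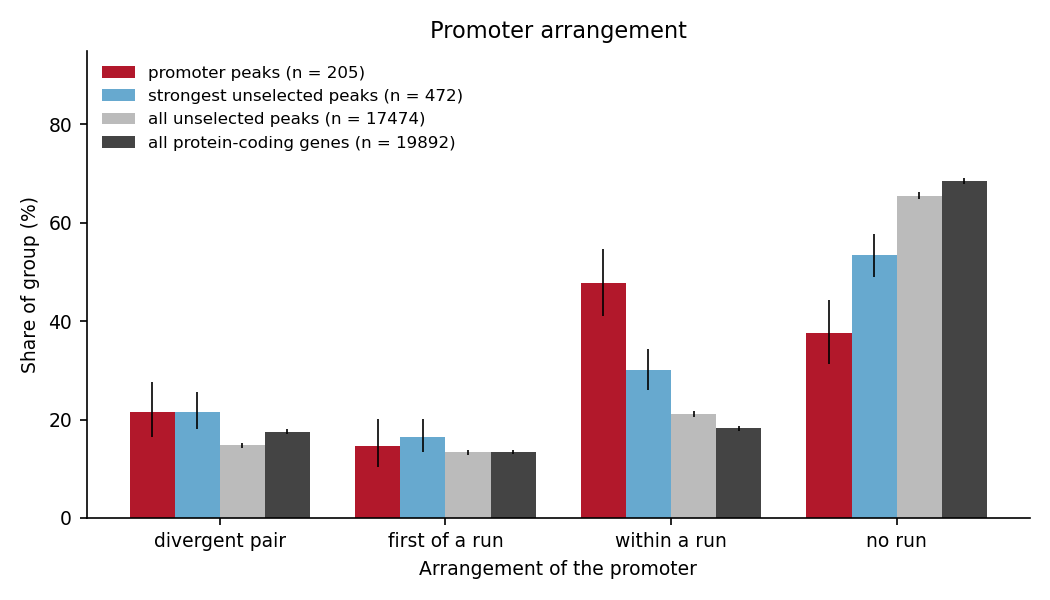
Share of each group (vertical axis, percent, with 95% Wilson intervals) at divergent pairs, at the first gene of a same-strand run, within a run and at genes with no run (horizontal axis). Promoter peaks (leftmost bar of each set) stand at 47.8% within a run, above the 30.1% of the strongest unselected peaks, while their shares at divergent pairs and first genes overlap those of the strongest unselected peaks.

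The 8 strongest first genes were K07C5.13 ahead of K07C5.3, Y55F3AR.2 ahead of cox-18, sec-61.G ahead of F32D8.13, rpl-15 ahead of K11H12.1, wip-1 ahead of mdt-11, dnj-13 ahead of F54D5.7, kvs-3 ahead of F44A2.7 and F54E12.2 ahead of sart-3. First genes had a median signal value of 75.4 (quartiles 64 to 97.4), genes within a run 67.9 (54.4 to 84) and genes with no run 65.5 (57.8 to 76.1), so the quartiles overlapped. The positions differed more. At first genes the median summit was 165 bp upstream and 80% (62.7 to 90.5) lay upstream, and at genes with no run it was 201 bp upstream and 81.8% (71.8 to 88.8) did. Within runs the median summit was 5.5 bp upstream and 52% (42.3 to 61.7) lay upstream. There, 33 of the 98 summits were in coding exons and 8 in 3' UTRs, and 34 were intergenic, against 3 in coding exons and 21 intergenic of the 30 at first genes.

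Peaks within runs were mostly at gene 2 of the run, 85 of 98 (86.7%, 78.6 to 92.1). The share at gene 2 was not computed for all genes within runs or for unselected peaks, so it does not set these peaks apart. Only 1 of the 98 had the 5' end of its run's first gene within 500 bp, and the median summit was 1826 bp downstream of that first 5' end. The gap to the gene ahead was shorter than for all genes within runs, with a median of 114 bp against 186 bp and 67.3% (57.6 to 75.8) under 200 bp against 52.4% (50.7 to 54). At xrn-2 the gene ahead was rpl-43 at 199 bp, at K11H12.1 it was rpl-15 at 59 bp, at thoc-7 it was rpl-29 at 116 bp and at rpi-2 it was K08D12.3 at 135 bp.

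Ribosomal protein genes recurred as the gene ahead. This comparison was chosen after the values were seen. In 17 of the 98 peaks within runs (17.3%, 11.1 to 26) the gene ahead encoded a cytosolic ribosomal protein, against 5 of 142 (3.52%, 1.51 to 7.98) of the strongest unselected peaks within runs, 0.92% of all unselected ones and 0.941% of all genes within runs. There are 34 genes that directly follow a ribosomal protein gene in a run, and 17 of them (50%, 34.1 to 65.9) had a promoter peak. They include pigk-1 behind rps-5 (signal value 89), Y105E8A.14 behind rps-20 (92.8), cyc-2.1, a cytochrome c gene, behind rpl-20 (88.8), C23G10.2 behind rps-3 (79.1) and tct-1 behind rla-0 (68.1). Their summits had a median position 10 bp downstream of the 5' end of the gene behind the ribosomal protein gene. Of the 17 peaks, 6 were in both replicate lists. Leaving all 17 out, 81 of 188 promoter peaks (43.1%) were within a run.

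Cytosolic ribosomal protein genes also had promoter peaks within 500 bp of their own 5' ends. Of 84 such genes, 16 (19%) had a promoter peak within 500 bp, against 1.19% of all 19892 non-histone protein-coding genes. They comprise 10 genes of the large subunit named rpl, 5 of the small subunit named rps, and rla-1 of the stalk. After rpl-3 came rpl-35 with a signal value of 140, at 63 in replicate 1 and 77.9 in replicate 2, and rpl-15 with 122.5, at 42.4 and 81.7. rpl-20 shared a peak of 118 with Y17G9B.5, at 48.6 in replicate 1 and 67 in replicate 2. rpl-7A had 111, at 40.5 and 73.2. The 17 peaks of these genes had a median of 83.5, and 9 of them were among the 52 strongest promoter peaks. The lowest of them was 56.9. The summit was upstream of, or at, the ribosomal protein gene's 5' end in 10 of the 17. Some summits were nearer to another gene, such as that at rpl-43, which lay at the 5' end of xrn-2. That peak also counts among the 17 behind ribosomal protein genes. Of the 84 genes, 81 (96.4%) had some peak of the long ranked list within 500 bp, against 66.6% of all non-histone protein-coding genes.

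The gene lists were drawn up by name with earlier results of these data known, so their counts only describe where the peaks fell. Genes known by a sequence name only are in none of the functional lists, whatever their product. The chaperone list thus leaves out F44E5.4 and F44E5.5 (172) and Y22D7AL.10 (112), and the translation factor list leaves out C37C3.18 (44.6). Other housekeeping groups were also represented. Among listed chaperone genes 7 of 61 had a promoter peak, with cct-8, dnj-13, dnj-9 (79.4) and hsp-110 (74.3) the strongest of the list. Among listed translation factors there were 4 of 53, eif-3.C, eef-1A.1 (62.5), eef-2 (60.2) and eef-1G (57.8). Respiratory chain and ATP synthase genes gave 4 of 70, cyc-2.1, cox-5A (87.4), atp-1 (56.3) and cox-5B (55.2). Proteasome genes gave 2 of 33, rpn-3 (74.3) and pas-1 (53.1), and nuclear pore and transport genes 3 of 43, ima-1 (71.5), npp-3 (66.9) and npp-6 (61.5). Splicing and mRNA processing gave 6 of 105, led by mog-4, hrpa-1 (72), pcf-11 (66.2) and prp-39 (55.9), and RNA helicases and decay 2 of 55, xrn-2 and ddx-23 (72.6).

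Nuclear and cell-division genes formed a further set. Chromatin regulators gave 7 of 130, with set-21 (111), lin-9 (111), set-2 (86.5) and lin-54 (83.5) the strongest. DNA replication and cell cycle genes gave 5 of 96, among them pcn-1, the sliding clamp PCNA, at 71, rfc-4, a clamp loader subunit, at 62.5, and also cdc-48.1 and cdc-5L (76.2), whose products are a segregase and a splicing factor. DNA repair gave 2 of 45, the translesion polymerase gene rev-1 (90.6) and exo-3 (80.7). Germline factors gave 4 of 89, pgl-3 (77.4), cey-2 (65.5), puf-9 (60.2) and ego-1 (50.2). set-21 and rpl-7A shared a peak, as did lin-54 and rpl-12, rfc-4 and eef-1A.1, and rpn-3 and hsp-110, and such a peak counts for both lists.

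The intervals of 4 lists lay wholly below the 1.19% of all genes. Chemoreceptor genes gave 3 of 1342 (0.224%, 0.0761 to 0.655), srh-16, srh-269 and srw-95, and transcription factors 1 of 563 (0.178%, 0.0314 to 0.999), nhr-47, whose peak of 71.8 also lay near dnj-19. Detoxification and innate immunity genes gave 0 of 535 (upper limit 0.713%), and genes known by a sequence name only gave 76 of 9012 (0.843%, 0.674 to 1.05). Those of cytosolic ribosomal protein genes (12.1 to 28.7) and chaperones (5.67 to 21.8) lay wholly above it. So did those of translation factors, respiratory chain and ATP synthase, proteasome, nuclear pore and transport, and splicing and mRNA processing genes. The same held for chromatin regulators, DNA replication and cell cycle, DNA repair and germline factors. The intervals of the lists that follow included 1.19%, so their counts did not stand apart from it. Of these, neuropeptide and synapse genes gave 0 of 160, RNA polymerase II machinery 0 of 91 and genes named as aminoacyl-tRNA synthetases 0 of 32, although K03B4.1, which RefSeq names a seryl-tRNA synthetase, had a peak of 44.5. Shares below 1.19% were those of metabolic enzymes with 2 of 273 (gpi-1 and gst-1), cuticle and collagen genes with 2 of 309 (dpy-11 and col-42), and solute transport and ion channel genes with 3 of 427 (kvs-3, ant-1.1 and haf-3). Shares from 1.39% to 2.44% were those of membrane traffic with 4 of 184 (sec-61.G, sec-61.B, sec-15 and syx-18), cytoskeleton and motors with 3 of 123 (tba-2, tba-1 and arx-2), ubiquitin system genes with 2 of 92 (cdc-48.1 and eel-1), kinases and phosphatases with 2 of 82 (kin-35 and pkc-3), mitochondrial ribosomal proteins with 1 of 70 (mrpl-50) and small GTPase and G protein signalling with 1 of 72 (egl-30). RNA helicases and decay, at 3.64%, also belonged here.

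**Figure D5:**
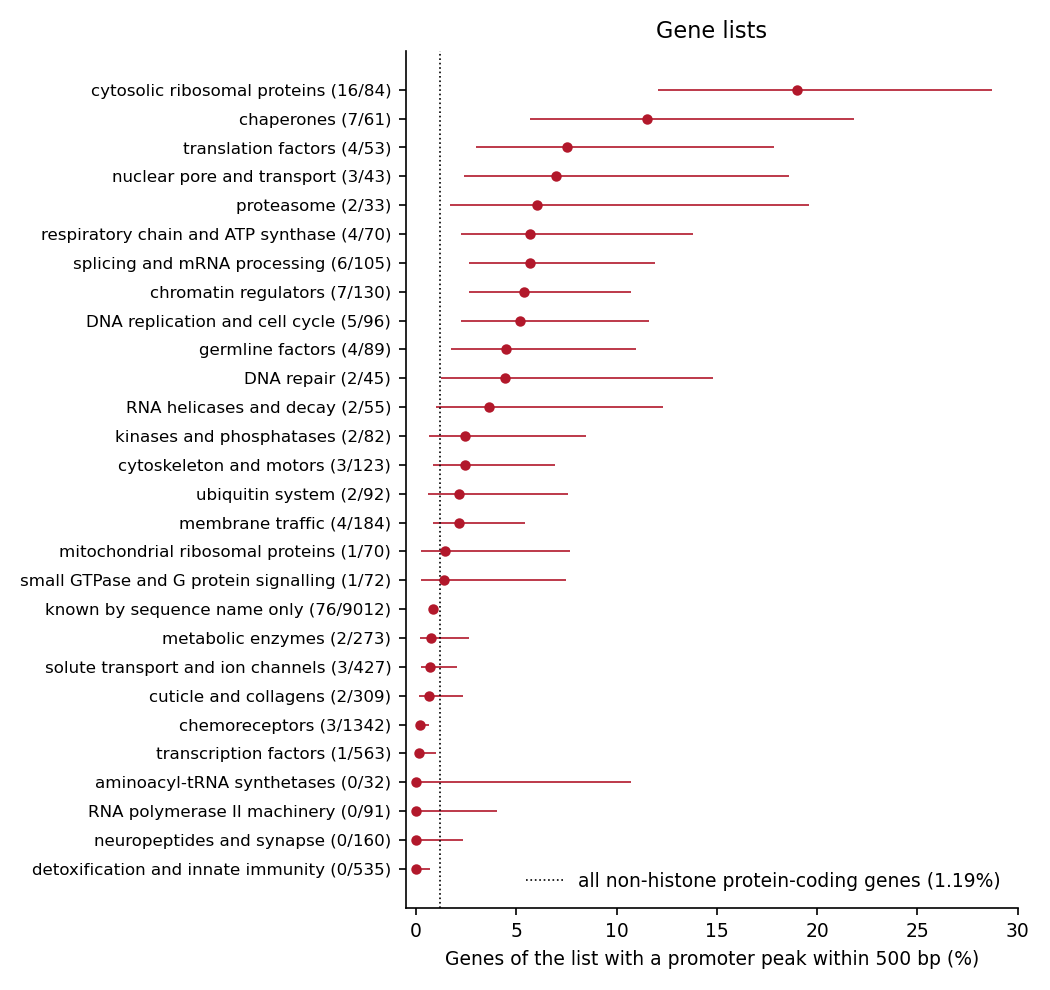
Share of the genes of each list with a promoter peak within 500 bp (horizontal axis, percent, points with 95% Wilson intervals), with counts beside the list names (vertical axis). The dotted line marks the 1.19% of all non-histone protein-coding genes, and cytosolic ribosomal protein genes stand highest at 19%.

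In all, 237 genes lay within 500 bp of a promoter peak, and 5 of them were the nearest gene of 2 peaks (rpl-41.2, pro-1, tba-1, C47E8.11 and Y49A3A.3). By chromosome, III and IV held 45 promoter peaks each, I held 43, V 37, II 29 and X 6. The X share was 2.93% (1.35 to 6.24), against 14.2% of unselected promoter peaks, 8.05% (5.92 to 10.9) of the strongest of them and 13.7% of genes. The peaks on X were those of epn-1, an endocytic adaptor gene, at 81.4, C28G1.2 at 63, F19C6.4 at 61.9, serp-1.1 at 61.4, puf-9 at 60.2 and the ER chaperone gene hsp-3 at 59.7, and none of them was among the 52 strongest. The share in repeated sequence was lower among promoter peaks than among the other conservative peaks, with intervals that did not overlap. Under 0.9 of the 31-base words were unique at 20 of 205 (9.76%, 6.4 to 14.6), against 37.6% (32.7 to 42.7) of the others.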

How the data were processed

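The authors' peak lists, 8 in number, are on ce11, the assembly WBcel235. Per the file headers, they derive from filtered alignments of 1 or both replicates. No source used here names the peak caller, and sequencing depth is unknown from these lists. Column 7 is the signal value that the authors' caller gave each peak, and column 10 of the deposited lists is the offset of the summit from the start. The deposited ranked lists hold a −log10 of the irreproducible discovery rate (IDR) in column 12, which was at least 2 for all conservative peaks, a global IDR of at most 0.01. A further 32 columns carry no sample name and were not used.

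Promoter peaks were found by distance to gene 5' ends of Ensembl release 115. The members and gene lists were chosen with earlier results of these data known. Replicate values come from the overlapping peak (1 bp or more, nearest summit) in each replicate's own list. Shares have 95% Wilson intervals, and medians have quartiles. These cover the number of peaks only, and no test was run, since peaks are not biological replicates and there is 1 group. Genes named are those at the 30 strongest promoter peaks, up to 4 per list, the 8 strongest divergent and first genes, the 5 shortest distances among the 100 strongest, and the window's edges. Genes with 2 peaks, the peaks on X, the groups of RNA and protein folding genes, those behind ribosomal protein genes, the sequences shown and K03B4.1 were chosen after their values were seen. Repeated sequence was measured as the share of 31-base words that occur once in the genome. The position rules were tested on simulated data. The work used Python 3.11.15 with numpy 2.4.6, pandas 2.3.3, scipy 1.17.1 and matplotlib 3.10.9. The closing section gives the alternatives.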

Additional observations from a re-analysis of the deposited data

How the results depend on the processing

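Of 69 values under alternative settings, 48 stayed within the interval of the reported value, 20 left it and 1 changed sign. The share of promoter peaks within a run was not among these values, so its dependence on the 500 bp gap is not known. The sign changed for the divergent minus single difference in median signal value, 5.07 as reported and -3.83 with divergent 5' ends at most 500 bp apart. Divergent promoters were then 13.7% of promoter peaks, and 37.6% at 2000 bp. With a window of 250 bp, promoter peaks were 23.8% of the list with a median absolute distance of 99 bp. With 1000 bp they were 51.1%, the distance was 282 bp, the upstream share 59.3% and the divergent share 28.3%. The member share and the distance follow from the window itself. With the 5' ends of all transcripts promoter peaks were 40.7% of the list, and without peaks nearest to a noncoding gene 30.7%. At a −log10 IDR of at least 3, the upstream share was 82.8%, first genes 22.4%, the median signal value 97.2, the divergent minus single difference 19 and the share in both replicate lists 62.1%. From the list of a single replicate, the member share ranged from 32.4% to 36.4%, the upstream share from 75% to 76.1%, the absolute distance from 166 to 178 bp, the divergent share from 21.6% to 23.7%, first genes from 15.8% to 20.5%, the median signal value from 41.8 to 50.2 and the divergent minus single difference from 2.35 to 5.04. Those lists are shorter and their signal values are not on the conservative list's scale. The cause of the other changes was not tested. No paired analysis was possible because the study has 1 group.

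With 2 replicates and no counts of reads, no error can be given for a single peak. Same-strand runs stand in for operons, and a trans-spliced gene's annotated 5' end need not be its start of transcription. A peak within 500 bp of a gene is not shown to regulate it. Unselected peaks include some that pass IDR.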

Other observations

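The genes below were chosen after their values were seen, with no list or total behind them. lin-9, lin-52, lin-53 and lin-54 encode subunits of the MuvB core of the DREAM complex. The peak at lin-9 had a signal value of 111, with 52.8 in replicate 1 and 57.5 in replicate 2. The peak 12 bp downstream of rpl-12 and 405 bp upstream of lin-54 had 83.5, with 32.2 in replicate 1 and 51.5 in replicate 2. lin-52 had 67, with 26 and 41.4 in the replicates. The peak between nra-2 and lin-53 had 63.8, with 29 in replicate 1 and 35.2 in replicate 2. Of these 4 peaks, that at lin-9 was in both thresholded replicate lists. No promoter peak lay within 500 bp of the 5' ends of lin-37, the other gene of that core, or of lin-35, efl-1 and dpl-1, which encode further DREAM subunits.

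The cell cycle list of the report gave 5 of 96 genes, of which knl-3 alone is repeated here. Other single genes were zen-4, a kinesin of cytokinesis (signal value 72), sgo-1 (68), ska-3 of the kinetochore and spindle (64.7, shared with rps-12), spd-5 of the centrosome (61.5, shared with npp-6), knl-3 (61.5), lab-2 (59.1) and tpxl-1, an Aurora A activator (54). Small-RNA factors included gtsf-1 (67.8), the exonuclease gene eri-1 (63.4), eri-5 (63.3) and the RNA-directed RNA polymerase gene ego-1 (50.2). The snoRNA protein gene nola-3 had 72 and pro-1, a pre-rRNA processing gene, had 78.8 and 57.3 at its 2 peaks.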
